A study of Mus musculus with 169 samples.

Results

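The 7 genes described here mark border macrophages and were followed in sorted mouse microglia. They are Mrc1, Pf4, Ms4a7, F13a1, Cbr2, Cd163 and Lyve1. Every probe whose transcript accession names one of these genes was taken, which gave 9 probes of 55681 on the array and 7 genes of 20145 symbols. F13a1 and Cbr2 had 2 probes each and the other genes had 1. The rule uses their names alone. All 9 probes passed the filter on dim probes, which asked for a signal well above background on at least 3 of 15 arrays.

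Border macrophages are the resident macrophages of the perivascular spaces, the meninges and the choroid plexus. They share an origin in the early embryo with microglia but live outside the brain tissue proper, sample the fluid around vessels and take up debris and blood-derived proteins. In mouse brain they are told from microglia by the mannose receptor and by genes such as Pf4, Ms4a7 and Lyve1, which parenchymal microglia express little or not at all. They carry CD11b and CD45 like microglia, so a sort on these surface markers can collect both.

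The arrays measured microglia from KO mice, which lack progranulin on both alleles (Grn−/−), and from WT mice (Grn+/+), at 4 and 16 months. Progranulin is a secreted and lysosomal glycoprotein. All mice were on a C57B/6J background, and the cells came from Percoll gradients and flow sorting with antibodies to CD11b, CD45 and Ly6G, per the labels. There were 3 KO and 4 WT arrays at 4 months and 4 KO and 4 WT arrays at 16 months; the submitters left out 1 further array. The labels name no sex, do not say whether animals were pooled, and name no promoter or cell type that restricts the deletion. They also do not say that arrays of a group came from separate mice, so a p-value here measures the spread between these arrays.

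A level is the log2 ratio of a probe's processed signal to the 75th percentile of its array, so 0 is a signal at that percentile. Signals under 0.0346 times that percentile were set to a floor of −4.85, and values at the floor have no order among themselves. The WT arrays 1 and 2 of 16 months differed by a scaled median absolute deviation of 0.121, and arrays 3 and 4 by 0.0944. Both lay under the 0.134 to 0.197 between repeat spots of 1 array, while other pairs within a group lay at 0.382 to 1.28. These arrays were therefore counted as 2 WT replicates, called 1-2 and 3-4, which left 13 replicates. The 75th percentile was 1072 to 1752 on KO and 1306 to 1649 on WT arrays at 4 months, and 507 to 1037 on KO and 1010 to 1511 on WT arrays at 16 months, with 0 saturated probes. Each age lay on a slide of its own, so age, slide and scan cannot be told apart, whereas each KO minus WT difference lies within 1 slide. KO and WT arrays also sat at different places of each slide, and these places cannot be told apart from the genotype. Grn itself averaged −2.77 ± 0.66 in KO and 6.25 ± 0.086 in WT arrays at 4 months (SD, n = 3 and 4), and was at the floor in all 4 KO arrays of 16 months against 5.04 ± 0.6 in the 2 WT replicates, in the direction of the labels.

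Of the 7 genes, 6 have a promoter in the RefSeq table (build GRCm38.p6), in 8 windows of 250 bases before and 50 after a start; Lyve1 is named only. PU.1, a transcription factor that macrophages and microglia need, binds purine-rich sites, and the letters GAGGAA are one such core. They occurred on either strand within the 250 bases before a start in 4 of the 8 windows, 1 in each of 4 genes, against 23.3% of all 32851 windows. The 4 genes are shown because their stretch of 100 bases before a start held the letters, as 4 of the 8 windows and 9.82% of all windows did; capitals mark GAGGAA or its complement TTCCTC, and each sequence reads 5′ to 3′ on the gene's strand.
Mrc1, chr2:14229314-14229413, plus strand: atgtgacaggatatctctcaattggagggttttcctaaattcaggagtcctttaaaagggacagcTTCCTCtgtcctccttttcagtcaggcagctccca
Pf4, chr5:90772335-90772434, plus strand: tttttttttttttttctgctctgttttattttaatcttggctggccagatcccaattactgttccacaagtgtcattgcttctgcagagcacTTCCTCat
F13a1, chr13:37050245-37050344, minus strand: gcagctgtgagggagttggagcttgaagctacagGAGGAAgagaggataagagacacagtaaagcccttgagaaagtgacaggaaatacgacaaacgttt
Cbr2, chr11:120732022-120732121, minus strand: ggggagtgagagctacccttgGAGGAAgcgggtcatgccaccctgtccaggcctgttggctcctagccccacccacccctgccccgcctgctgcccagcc
The match begins 35 bases before the start in Mrc1, 8 in Pf4, 66 in F13a1 and 79 in Cbr2. The F13a1 stretch belongs to the second of that gene's 2 windows. The windows of Ms4a7 and Cd163 did not hold these letters, which says nothing about the binding of any factor there.

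KO and WT microglia did not differ in any of the 7 genes past limma's adjusted threshold of 0.05 at either age. In Pf4, Ms4a7, F13a1 and Cbr2 the mean levels of the 2 ages lay further apart, in both genotypes, than those of KO and WT did at either age. Mrc1 and Ms4a7 were higher on every KO array than on every WT array at 4 months. The genes encode 3 receptors (Mrc1, Cd163 and Lyve1), the membrane protein Ms4a7, the chemokine Pf4 and the enzymes F13a1 and Cbr2.

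Mrc1 encodes the mannose receptor CD206, an endocytic receptor for glycoproteins and a widely used border macrophage marker. At 4 months its levels were 1.94, 2.77 and 1.26 on the 3 KO arrays and −0.15, 0.28, −0.11 and 0.18 on the 4 WT arrays. The lowest KO array stood above the highest WT array, and the 4 WT arrays lay closer together than the 3 KO arrays. The KO minus WT difference was 1.94 ± 0.49 (SE; 95% interval 0.86 to 3.03), and limma gave an adjusted p = 0.375 over all 31932 features (0.0025 before adjustment). At 16 months Mrc1 was at 3.72, 2.69, 3.89 and 4.68 on the KO arrays and at 2.39 and 3.67 in the WT replicates. The groups overlapped, and the difference of 0.71 ± 0.56 had an interval of −0.52 to 1.95 (limma, adjusted p = 0.36). Mrc1 was well above background on all 15 arrays.

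Cd163, the scavenger receptor that takes up haemoglobin bound to haptoglobin, was close to undetected. It lay at the floor on all KO and WT arrays of 4 months, although 1 KO and 4 WT arrays there were marked as well above background, and on all 4 KO arrays of 16 months. The WT replicate 1-2 of 16 months stood at −3.39 and replicate 3-4 at the floor. No KO array of 16 months was well above background for Cd163, against 2 of 4 WT arrays, both of replicate 1-2. The fitted KO minus WT difference was −0.73 ± 0.3, with an unadjusted p = 0.0341 and an adjusted p = 0.0842 from limma. It rests on 1 WT sample: without WT replicate 3-4 the difference was −1.46, and without WT replicate 1-2 it was 0. The floor leaves the 4-month groups and KO of 16 months without any spread. Limma's p therefore cannot decide whether Cd163 differed.

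Lyve1 encodes a hyaluronan receptor that marks a subset of border macrophages and also lymphatic endothelium. At 4 months it was at −3.73, −2.23 and the floor on the KO arrays, and at −2.42 on 1 WT array and the floor on the other 3. At 16 months KO arrays 1 and 3 stood at 0.89 and 2.33 while KO arrays 2 and 4 lay at the floor, against 0.88 and 1.85 in the WT replicates. The KO arrays thus fell into a pair inside or above the WT range and a pair without a measurable signal. The difference was −2.98 ± 1.9 (interval −7.25 to 1.29), with adjusted p = 0.263 from limma. KO arrays 2 and 4 were also those where the 8 neutrophil genes measured, such as S100a8 and S100a9, summed to 0.778 and 0.634 times the 75th percentile, against 251 and 217 on KO arrays 1 and 3 and 369 and 81.8 in the WT replicates. The part of this in the Lyve1 values was not tested. Of the 3 lymphatic endothelium genes measured, Prox1 and Flt4 averaged −4.1 and −4.52 in KO and −3.51 and −4.85 in WT at 16 months. The third, Pdpn, which other cell types express too, averaged 4.35 in KO and 2.83 in WT at 16 months, and 0.64 in KO and −3.3 in WT at 4 months. Its part in the Lyve1 values was not tested.

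Ms4a7 encodes a membrane protein of the MS4A family that brain border macrophages express and homeostatic microglia largely lack. At 4 months it was at 1.23, −0.23 and −0.9 on the KO arrays and at −2.31, −4.85, −1.75 and −1.89 on the WT arrays, of which the second is at the floor. The 2 groups did not overlap. The difference was 2.73 ± 0.86 (interval 0.82 to 4.65), and limma's p of 0.00956 became 0.569 after adjustment. At 16 months the levels were 1.81, 3.9, 4.2 and 4.31 on the KO arrays and 3.17 and 3.78 in the WT replicates, so the WT values fell inside the KO range. The difference there was 0.08 ± 0.98 (limma, adjusted p = 1). No relative of Ms4a7 on the array passed the test at either age, 0 of 9 MS4A genes with a tested probe; the 2 brightest were Ms4a4c, with a KO minus WT difference of 0.41 ± 0.47 at 16 months, and Ms4a6d, with −0.54 ± 0.68.

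Pf4 encodes platelet factor 4, a chemokine stored in platelets and made by border macrophages. At 4 months it was at −0.05, −0.08 and 0.95 on the KO arrays and at −0.62, 0.77, 0.49 and 0.12 on the WT arrays, and the groups overlapped. At 16 months it was at 0.98, 4.7, 4.44 and 4.72 on the KO arrays, against 4.52 and 5.2 in the WT replicates. KO array 1 stood far below the other 3, of which 2 lay between the WT replicates and 1 just under them. The difference was −1.15 ± 0.94 (interval −3.23 to 0.93; limma, adjusted p = 0.384), and without KO array 1 it was −0.24 (adjusted p = 0.741). The platelet list did not follow Pf4 between ages: its 8 measured genes summed to 0.386 to 0.564 times the 75th percentile in KO and 2.84 to 6.26 in WT at 16 months, and to 6.38 to 6.78 in KO and 9.03 to 11.5 in WT at 4 months. Ppbp, a chemokine of platelet granules, lay at the floor on every KO array of both ages, and in WT it reached −2.83 at 4 months and −2.34 at 16 months, with the lowest WT value of each age at the floor. The brightest of the list at 4 months, Gp9 and Treml1, averaged 0.99 and 1.74 in KO and 2.59 and 1.68 in WT there. At 16 months they averaged −4.14 and −4.69 in KO and 1.18 and 0.05 in WT. The part of platelets in the Pf4 values was not tested.

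F13a1 encodes the catalytic subunit of coagulation factor XIII, a transglutaminase. Its brighter probe was at the floor, the floor and −3.15 on the KO arrays of 4 months and at −1.49, −4.03, −4.85 and −2.74 on the WT arrays. At 16 months the same probe read −0.14, 2.66, 3.54 and 2.65 on the KO arrays and 2.17 and 3.99 in the WT replicates. KO array 1 was again the lowest, and the 2 groups overlapped. The difference was −0.9 ± 1.1 (interval −3.43 to 1.62; limma, adjusted p = 0.59). The other probe of F13a1 lay at or under the floor on all 15 arrays. It was marked as well above background on 0 arrays of 4 months and on 1 KO and 4 WT arrays of 16 months, and the values given here are those of the brighter probe.

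Cbr2 encodes a carbonyl reductase. Its brighter probe was at −1.08, −3.51 and −1.85 on the KO arrays of 4 months and at −1.58, −1.43 and the floor on the other 2 WT arrays. At 16 months it was at 0.83, 1.77, 3.41 and 2.78 on the KO arrays and at 1.14 and 2.48 in the WT replicates. The differences were 1.03 ± 1 at 4 months (adjusted p = 1) and 0.39 ± 1.2 at 16 months (adjusted p = 0.859), both from limma. The dimmer probe gave 0.69 ± 0.71 at 4 months and 1.31 ± 0.8 at 16 months, of the same sign and also not past the threshold.

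**Figure D1:**
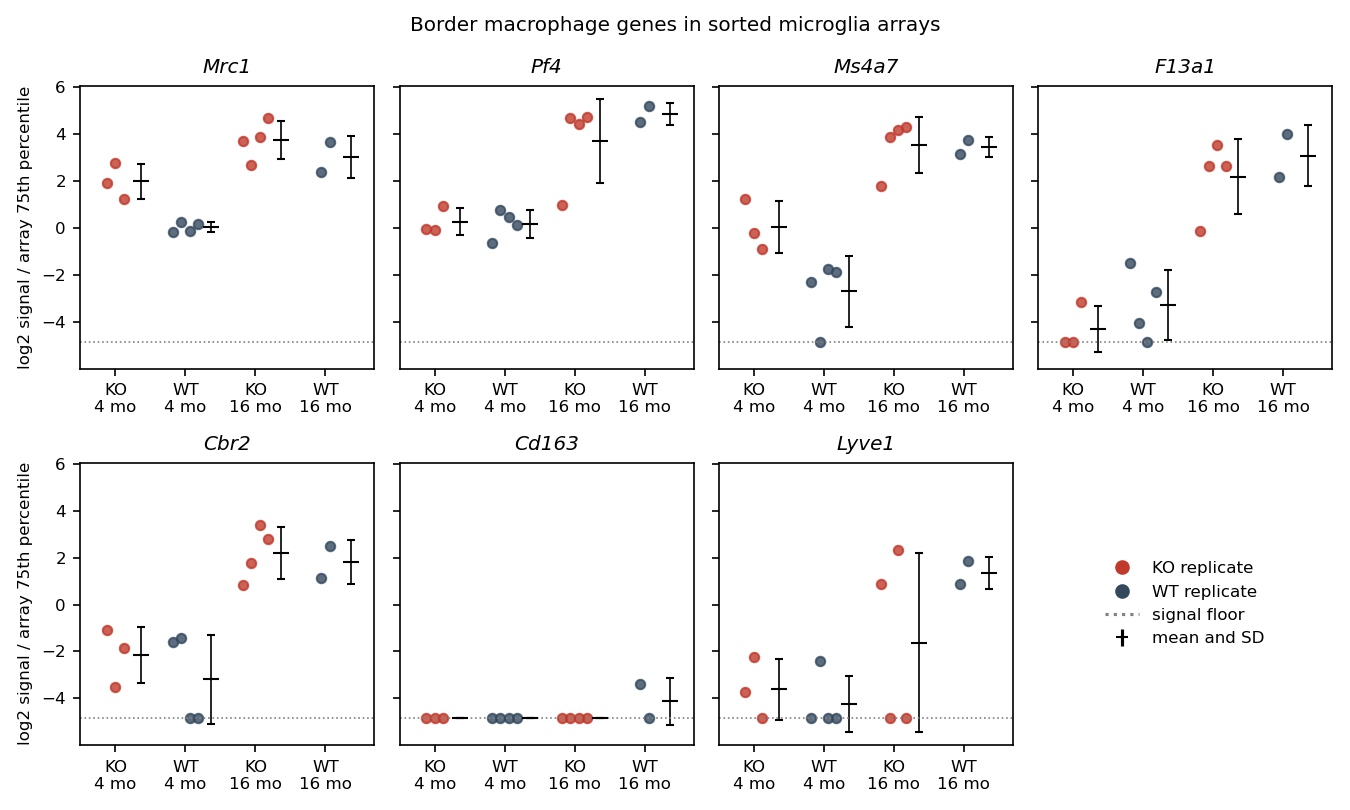
Level of each border macrophage gene by replicate (points), as the log2 ratio of signal to the array's 75th percentile, in KO and WT microglia of 4 and 16 months; black marks are the mean and SD of each group and the dotted line is the floor at −4.85. Pf4, Ms4a7, F13a1 and Cbr2 stand higher at 16 than at 4 months in both genotypes, Cd163 lies at the floor in all but 1 replicate, and 2 of 4 KO replicates of 16 months have Lyve1 at the floor.

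Counted together, 0 of 7 genes passed limma's test at 16 months, where 34.1% of all features did (6110 higher and 4780 lower in KO; with the percentile taken over probes above background on all arrays, 4671 higher and 5905 lower). At an unadjusted limma p under 0.05 the count was 1 of 7, Cd163, against 14239 of 31932 features. At 4 months 0 of 7 passed, against 0.0251% of all features, or 8 of 31932. Under an unadjusted 0.05 lay 2 of 7 there, Mrc1 and Ms4a7, against 1928 of 31932 features. The median KO minus WT difference over the 7 genes was −0.73 at 16 months and 0.64 at 4 months, beside 0.11 and 0 over all features. These medians are the values of Cd163 at 16 months and of Lyve1 at 4 months, both with arrays at the floor. The single differences at 16 months lay on both sides of 0, from −2.98 for Lyve1 to 0.71 for Mrc1. In 2 of 7 genes every KO replicate exceeded every WT replicate at 4 months, against 4.95% of all features. At 16 months 0 of 7 did, against 23.9% of features; leaving out a single replicate made it 1, Mrc1 without WT replicate 3-4 or KO array 2 and Ms4a7 without KO array 1.

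The difference between the ages in the KO minus WT difference was tested in the same fit, and 0 of 7 genes passed, against 13.3% of features. At an unadjusted limma p under 0.05 it was also 0 of 7, against 9614 of 31932 features. Ms4a7 had the lowest p, with −2.66 ± 1.3 (interval −5.55 to 0.24; limma, adjusted p = 0.202). For Mrc1 it was −1.23 ± 0.74 (limma, adjusted p = 0.298). The non-overlap of these 2 genes at 4 months was therefore not shown to differ from the pattern at 16 months. Most intervals are wide: at 16 months that of Cbr2 runs from −2.22 to 3, that of Ms4a7 from −2.09 to 2.25 and that of F13a1 from −3.43 to 1.62. For these genes a change of several fold either way is therefore not excluded. The intervals of Lyve1 (−7.25 to 1.29) and Pf4 (−3.23 to 0.93) reach further below 0 than above it.

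**Figure D2:**
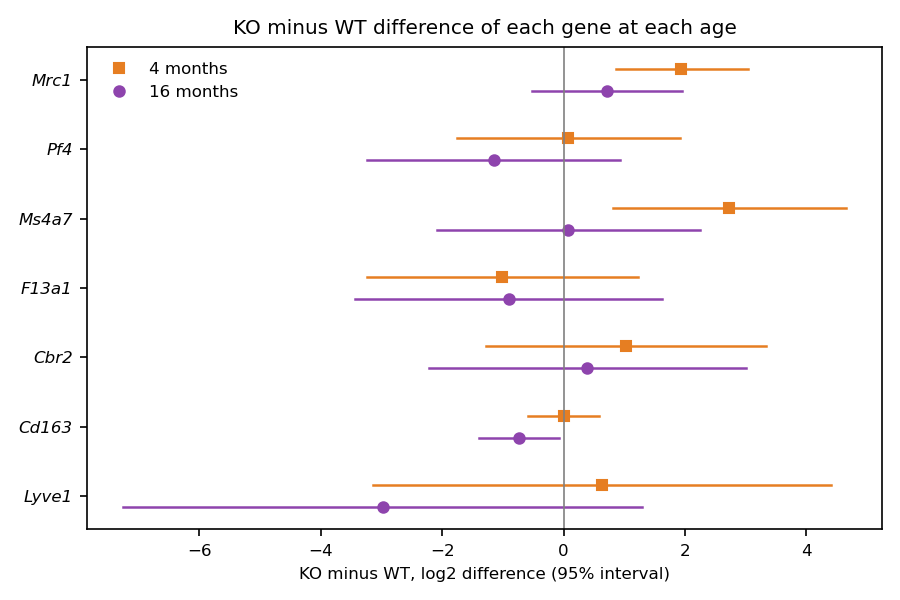
KO minus WT log2 difference of each gene at 4 months (squares) and 16 months (circles), with limma's 95% interval as a line. The intervals of Mrc1 and Ms4a7 at 4 months and of Cd163 at 16 months do not reach 0, and no gene passed 0.05 after adjustment over all features. The interval of Cd163 rests on values mostly at the floor.

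Between the slide of 4 months and that of 16 months the genes' levels differed strongly in both genotypes; since age and slide cannot be told apart, these values are given without a test. The 16 minus 4 month difference was 1.75 in KO and 2.98 in WT for Mrc1, a ratio of 3.37-fold and 7.91-fold. It was 3.43 in KO and 4.67 in WT for Pf4 and 3.52 in KO and 6.17 in WT for Ms4a7. For F13a1 it was 6.46 in KO and 6.36 in WT, and for Cbr2 4.34 in KO and 4.99 in WT. Lyve1 differed by 1.98 in KO, whose arrays were split, and by 5.61 in WT, and Cd163 by 0 in KO and 0.73 in WT. Where arrays of 4 months lie at the floor, as for F13a1, Cbr2, Lyve1, Cd163 and 1 WT array of Ms4a7, the size of the difference depends on where the floor was set.

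Every KO replicate of 16 months exceeded every KO replicate of 4 months in 4 of 7 genes, Pf4, Ms4a7, F13a1 and Cbr2, against 19.7% of all features. In WT the count was 6 of 7, all but Cd163, against 8% of all features. The median 16 minus 4 month difference over the 7 genes was 3.43 in KO and 4.99 in WT, beside 0 and −0.17 over all features. The signals of the 4-month arrays had also been divided by a fitted surface that those of 16 months had not; starting instead from the median spot signals, corrected by normexp, gave 3 of 7 genes in KO, with Pf4 dropping out, and the same 6 in WT. Pf4 also dropped out with the percentile taken over probes above background on all arrays, which keeps the processed signals; its lowest KO value of 16 months was 0.98 and its highest of 4 months 0.95. Without KO array 2 of either age Mrc1 joined and the KO count was 5.

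Summed over the 7 genes, the signal was 7.78, 9.01 and 5.33 times the 75th percentile on the KO arrays of 4 months and 2.51, 3.62, 2.77 and 2.75 on the WT arrays. At 16 months it was 23.3, 57.2, 82.1 and 85.1 on the KO arrays and 45.8 and 88.3 in the WT replicates. The 4-month sums did not overlap between genotypes or with the 16-month sums, while at 16 months the WT sums lay inside or just above the KO range. In sorted cells as here, more border macrophages in the sort and more of each transcript per cell cannot be told apart.

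A list of 12 choroid plexus epithelium genes was also higher at 16 months, and higher in KO than in WT at 4 months. The choroid plexus is the secretory tissue of the ventricles and houses border macrophages of its own. Its summed signal was 251 to 376 in KO and 14.5 to 155 in WT at 4 months, and 1340 to 2570 in KO and 475 to 895 in WT at 16 months. Over the 13 replicates the mean standardised levels of the 2 lists correlated at r = 0.848, which takes in the differences between group means. Within 16 months the choroid plexus sum was 2010, 2570, 1810 and 1340 on the KO arrays and 895 and 475 in the WT replicates, without overlap. The replicate with the highest border macrophage sum had the lowest choroid plexus sum there in each genotype. At 4 months WT array 2 had the highest of both sums in WT (3.62 and 155). In KO, array 3 had the lowest border macrophage sum (5.33) and the highest choroid plexus sum (376). All 12 genes had every 16-month replicate above every 4-month replicate in both genotypes, with a median difference of 4.13 in KO and 5.15 in WT. At 4 months its median KO minus WT difference was 3.05, the age at which Mrc1 and Ms4a7 did not overlap, though 0 of 12 genes passed limma's test. At 16 months 6 of 12 were higher in KO and 0 lower, led by Cldn2 (3.39 ± 0.51), Kcnj13 (3.19 ± 0.86), Sostdc1 (2.89 ± 0.99) and Folr1 (2.67 ± 0.81); under quantile normalization 2 were. Ttr, which encodes the transthyretin that this epithelium secretes, differed by 0.73 ± 0.77 and Enpp2 by 1.33 ± 0.65 without passing. Its part in the members' values was not tested.

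**Figure D3:**
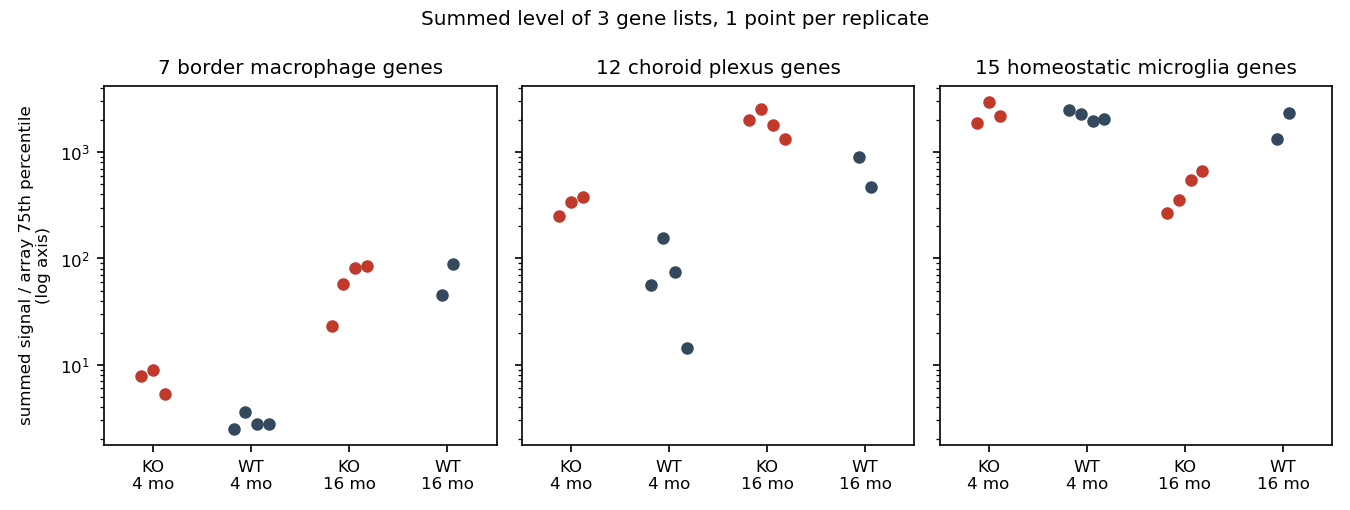
Summed signal over the 75th percentile of the array (log axis) of the 7 border macrophage genes, 12 choroid plexus genes and 15 homeostatic microglia genes, 1 point per replicate, in KO and WT microglia of 4 and 16 months. The first 2 lists are higher at 16 months in both genotypes, and the homeostatic list is lower in the 4 KO replicates of 16 months, at 267 to 660, than in WT, at 1320 to 2310.

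The identity of the sorted cells was read from the 15 homeostatic microglia genes. Of these, 13 fell in KO at 16 months and 0 rose, among them Slc2a5 (−5.4, adjusted p = 0.00627), Selplg (−4.93, 0.00061), Crybb1 (−4.42, 0.00281) and the fractalkine receptor Cx3cr1 (−4.32, 0.00297), all by limma. Fcrls, an Fc receptor-like gene of mouse microglia, differed by −2.18 ± 0.77 without passing (limma, adjusted p = 0.0506). At 4 months 0 of the 15 passed, and their median KO minus WT difference was 0.07. Of the sort markers, Itgam, the gene of CD11b, fell by 1.97 ± 0.47 on the log2 scale in KO at 16 months (limma, adjusted p = 0.00904), while Ptprc, the gene of CD45, differed by −0.54 ± 0.77.

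Of the other lists, blood endothelium had 2 genes higher and 2 lower in KO at 16 months of 10, fibroblast and mural cell 1 and 1 of 10, monocyte 1 and 0 of 6, neutrophil 1 and 0 of 8, dendritic cell 0 and 2 of 5, T and NK cell 1 and 0 of 5, platelet 0 and 4 of 8, and lymphatic endothelium 0 and 0 of 3. For Cd163, whose ligand is haemoglobin bound to haptoglobin, 5 genes of haem handling were examined, of which 2 rose at 16 months: Blvra (2.13 ± 0.26) and Blvrb (1.78 ± 0.46), the 2 biliverdin reductases. Haem oxygenase Hmox1 differed by −0.05 ± 0.44 and the iron exporter Slc40a1 by −2.3 ± 0.92, and neither passed.

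A further 18 border macrophage genes were examined, of which 17 had a tested probe. At 16 months 3 were higher in KO and 3 lower, and the median difference was −0.32; with the percentile taken over probes above background on all arrays 0 were higher and 3 lower. Higher were Folr2, a folate receptor of perivascular macrophages (1.82 ± 0.63, limma's adjusted p = 0.0475), the endocytic adaptor Dab2 (1.46 ± 0.36, 0.0114) and the neonatal Fc receptor Fcgrt (1.31 ± 0.39, 0.0246). Lower were the ATP-gated channel P2rx7 (−3.04 ± 0.84, 0.0179), the matrix protein Tgfbi (−2.24 ± 0.55, 0.0103) and the scavenger receptor Stab1 (−1.28 ± 0.42, 0.0379), each by limma. In microglia of 4 months P2rx7 stood at 6.72 in KO and 6.74 in WT, Tgfbi at 3.03 in KO and 2.92 in WT and Stab1 at 4.87 in KO and 4.75 in WT. Fcgrt and Stab1 are named to complete these counts, after their values were seen. The transcription factor Maf and the lectin Mgl2, the 2 brightest that did not pass, differed by −0.32 ± 0.38 and 0.29 ± 0.6. At 4 months 0 of 17 passed; Folr2 was higher in KO by 2.15 ± 0.56 there (limma, adjusted p = 0.4), in size between Mrc1 and Ms4a7. Every 16-month replicate exceeded every 4-month replicate in 7 of 17 genes in KO and 7 of 17 in WT, against 19.7% and 8% of all features. These counts leave out genes that were lower at 16 months without overlap. An example is P2rx7 in KO, at most 4.11 at 16 months and at least 6.64 at 4 months.

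**Figure D4:**
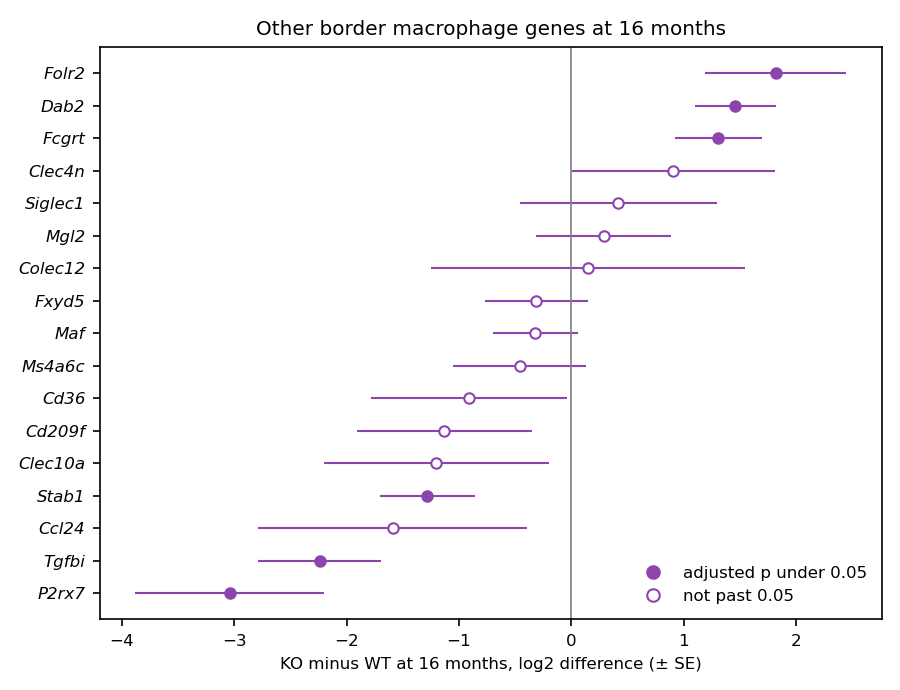
KO minus WT log2 difference at 16 months (± SE) of 17 further border macrophage genes; filled points passed an adjusted p of 0.05. Folr2, Dab2 and Fcgrt lie to the right of 0, P2rx7, Tgfbi and Stab1 to the left, and 11 genes did not pass.

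The 7 genes did not all vary together. Pearson's r over the 13 replicates was highest between Pf4 and F13a1 (0.911), and Cbr2 was nearest to F13a1 (0.882) and Mrc1 to Ms4a7 (0.874), whereas Cd163 reached at most 0.344, with Lyve1. These values span 4 groups and take in the differences between group means. After subtraction of the group means, r was 0.525 between Pf4 and F13a1, 0.536 between F13a1 and Cbr2 and 0.0869 between Mrc1 and Ms4a7. In KO array 1 of 16 months Pf4, Ms4a7, F13a1 and Cbr2 were all the lowest of the 4 KO arrays, and Mrc1 and Lyve1 were not.

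Against the mean standardised level of the 7 genes, the most alike of 17636 other genes with a symbol was Clec10a, a lectin receptor of border macrophages (r = 0.963 over 13 replicates). It averaged −3.42 in KO and −4.84 in WT at 4 months, and 1.58 in KO and 2.78 in WT at 16 months. Next came Gfpt2 (0.937), Gm8909 (0.923), Dusp18 (0.916), the MHC class II chain H2-Aa (0.908), the chemokine Ccl8 (0.907), Zscan10 (0.905) and Prlr (0.897), which is also 1 of the choroid plexus genes. Least alike were Lactb (−0.95), Olfr1000 (−0.944) and Dnase1l2 (−0.936). All of these points share the 2 slides.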

How the data were processed

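Microglia were profiled on 15 single-colour Agilent arrays (design 028005). Per the file headers, the deposited processed signal is a spot intensity after background subtraction by Feature Extraction 10.7.3.1. R 2.15.3 is listed in the submitters' processing notes. The deposited 4-month intensities had, per the file values, been divided by a fitted surface as well, which affects levels between ages.

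Control spots and outlier spots were left out, repeat spots averaged, signals divided by the array's 75th percentile, floored at 0.0346 and put on the log2 scale. Probes were named through their RefSeq accession (26582 of 55681; table of GRCm38.p6, used for names). Probes had to exceed background clearly on 3 or more arrays (45616 did), and the probe with the highest mean stood for a gene, giving 31932 features.

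One linear model over the 4 groups (13 replicates) was fitted with limma 3.58.1 in R 4.3.3 and was tested on simulated data. Each adjusted p is limma's, two-sided, Benjamini-Hochberg over all features. KO and WT arrays share replicate numbers, whose meaning the labels leave unstated. Deviations from group means correlated at −0.0449 to −0.0361 in the 3 same-numbered pairs of 4 months and 0.115 to 0.123 in the 4 of 16 months, where the WT arrays are 2 samples. The numbers were not taken as pairs.

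The 7 genes and all lists were chosen with earlier results of these data known. From other lists, up to 4 genes that passed at 16 months and the 2 brightest that did not were named; 1 result is not reported here. Whole-brain bead arrays were not used here, because no table used here pairs their probes with genes. The number of arrays limits precision; intervals are 95%.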

Additional observations from a re-analysis of the deposited data

Results flagged for a closer look

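Among 9 sets of 4 replicates of the 7 genes, 2 held a replicate whose gap to the next one, as a share of the range, exceeded Dixon's 95% critical value; chance alone gives about 1 in 20, and 5 further sets with more than 1 replicate at the floor were not examined. Pf4 on KO array 1 of 16 months was at 0.98, below the 4.44 to 4.72 of the other KO arrays (share 0.926). Ms4a7 on the same KO array was at 1.81, below 3.9 to 4.31 (share 0.836).

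Of 32 genes named from other lists or as a check of the labels, 5 passed limma's test in the joint fit for a difference between ages. Gp9 and Treml1, named to describe the platelet list, also passed and are not counted here. The share over all features was 13.3%. Many of the 32 were named because they passed at 16 months, which favours passing here, so the count says nothing about the lists. The change in the KO minus WT difference, as 16 minus 4 months, was −4.85 for Selplg, −4.42 for Cx3cr1 and −4.39 for Crybb1, homeostatic microglia genes. It was 2.32 for Cldn2 of the choroid plexus and 1.85 for the biliverdin reductase Blvra.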

How the results depend on the processing

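No border macrophage gene passed limma's test at 4 or 16 months, or in the difference between ages, under any other setting run. These were other normalizations, filters, probe choices and replicate definitions. None passed either when a single replicate was left out and every group kept more than 1. Fits without WT replicate 1-2 or 3-4 leave 1 WT sample of 16 months and are not counted. In these the 16-month difference of Cd163 was 0 and −1.46. The filter for probes above background on all 15 arrays left only Mrc1 and Pf4 to test. KO above WT without overlap at 16 months held 0 to 1 gene.

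With the replicate block, 1 feature passed at 4 months and 1995 in the difference between ages, against 8 and 4256 without it; it changed no call of the 7 genes. At 4 months the count of features was 2 with quantile normalization, 4 with normexp, 0 for probes above background on all 15 arrays (limma), 16 with all arrays separate, 25 with that age alone, and 3 to 17 without single replicates (3 without WT array 2, 4 without WT array 3, 5 without WT array 4, 17 without KO array 1). At 16 months it was 3404 with that age alone. The difference between ages gave 6746 features with all arrays separate and 2454 to 5638 without single replicates (2454 without KO array 3 of 4 months, 2789 without KO array 1, 2825 without WT array 3). The cause was not tested.

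Differences near 0 turned sign. Ms4a7 at 16 months was −0.33 with quantile normalization, −0.23 with the percentile over probes above background, and −0.23 to 0.66 without single replicates. F13a1's difference between ages was −0.19, −0.22, −0.06 with normexp and −0.08 with the replicate block, and −0.8 to 1.01 without single replicates. Without single replicates Cbr2 gave −0.28 to 1.06 at 16 months and −1.32 to 0.02 between ages, and at 4 months Pf4 gave −0.25 to 0.28 and Lyve1 −0.05 to 1.26.

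Mrc1 at 4 months ranged from 1.55 to 2.31 with adjusted p of 0.162 to 1, and Ms4a7 from 2.02 to 3.2 with 0.303 to 1. The median of all features at 16 months was 0.45 with normexp, against 0.11. The alternatives for levels between ages and for groups without overlap were chosen after seeing the data; normexp used median spot signals, since the planned mean signals were not used here. Brain alternatives were not run.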
